A study of Rattus norvegicus with 6 samples.

Results

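The genes described here are 10 genes of autophagy and the lysosome: *Becn1*, *Atg3*, *Atg5*, *Atg7*, *Atg12*, *Map1lc3a*, *Map1lc3b*, *Sqstm1*, *Lamp1* and *Lamp2*. They were chosen by name, with earlier results of these data known. Genes were found on the array through the RefSeq transcript that a probe was designed to. A probe was matched for 9 of the 10, among 13903 genes named in this way, and all 9 were among the 11201 genes tested. *Lamp1* had no matched probe and was not analysed here. Total RNA of pancreatic islets, freed by collagenase digestion from male Wistar rats aged 3 or 12 months, was labelled with Cy3 and read on single-colour arrays, with 3 arrays of each age from 3 rats of each age. No other treatment or genotype separated the groups. Each age was read in its own scan, and the effects of the scan and of age cannot be told apart. Isolated islets are bulk tissue, in which fewer cells of a type and less RNA per cell cannot be told apart.

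Macroautophagy encloses part of the cytoplasm in a double membrane, the autophagosome, and delivers it to the lysosome for breakdown. BECN1 belongs to the lipid kinase complex that starts the membrane. ATG7 is the activating enzyme of both ubiquitin-like conjugation systems: one joins ATG12 to ATG5, and the other, through ATG3, attaches the LC3 proteins encoded by *Map1lc3a* and *Map1lc3b* to the membrane. SQSTM1, also called p62, carries ubiquitinated cargo to LC3 and is itself degraded with it, and LAMP1 and LAMP2 are the most abundant proteins of the lysosomal membrane. Beta cells rely on this pathway to remove damaged mitochondria. Transcript levels do not measure the flow of material through the pathway.

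All 9 measured genes were well above background on all 6 arrays, and 7 of them were in the brightest 20% of probes. None passed a Benjamini-Hochberg adjusted p of 0.05 in limma, at which 8.37% of the 17941 tested probes were called, or 3.54% of the brightest 20%. None passed the study's threshold either, a fold change over 2 with an unadjusted p under 0.05, which with limma's p called 22.0% of tested probes and 7.25% of the brightest 20%. The study's own lists give the p of a paired test, and with such a test, which has to assume the third pair, the same threshold called none of the 9 genes and 1550 of 17876 probes. At an unadjusted limma p under 0.05 alone, 3 of the 9 passed, *Sqstm1* as higher and *Atg7* and *Map1lc3b* as lower at 12 months, against 32.4% of all tested probes. The ages did not overlap for 6 of the 9, 2 higher and 4 lower at 12 months. Among all probes 39.2% had no overlap, made up of 16.5% that were higher and 22.7% that were lower. The median difference of the 9 genes was -0.13 on the log2 scale, against -0.17 over all tested probes. With 3 arrays against 3, an exact permutation test of a single gene cannot give a two-sided p below 0.1, which is the value of each of the 6 genes without overlap.

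**Figure D1:**
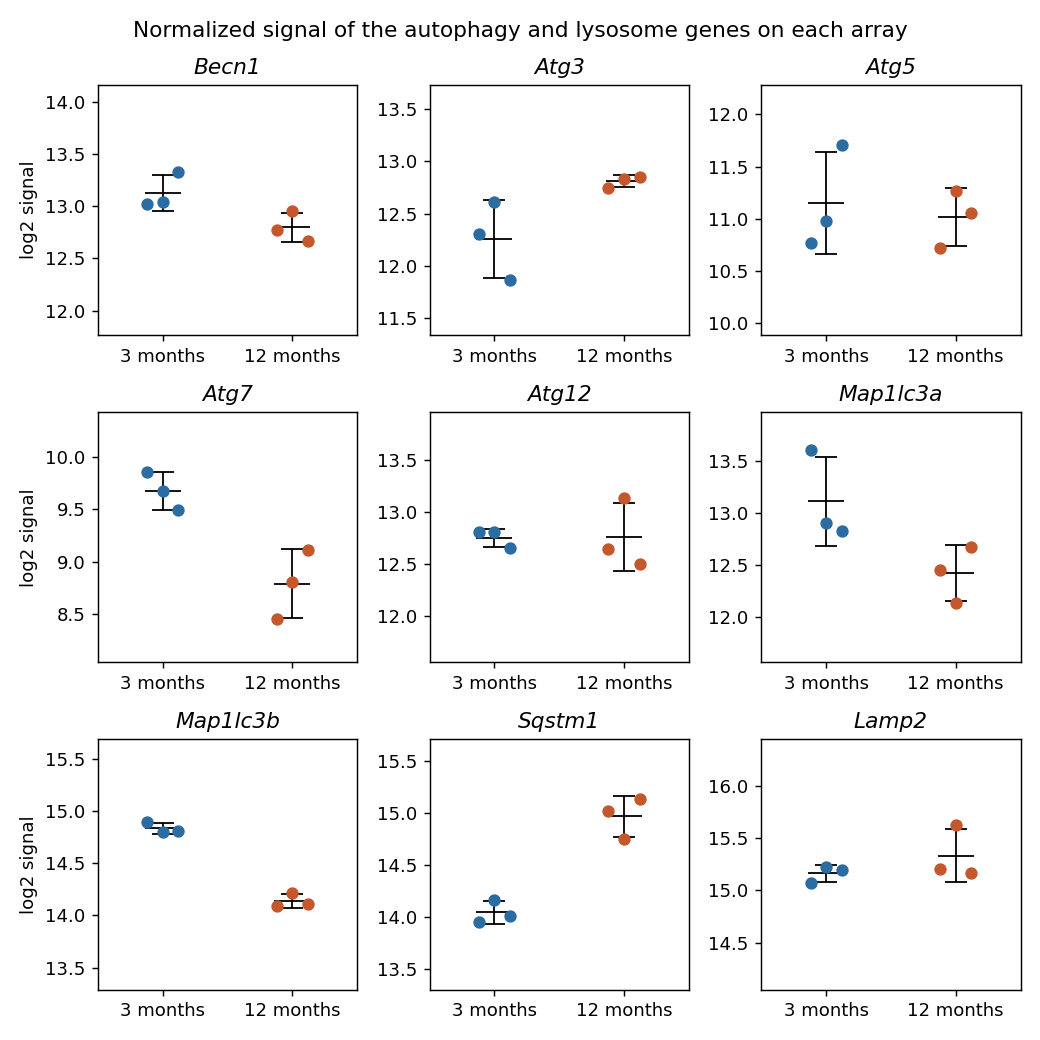
Normalized log2 signal (vertical axis, 1 panel per gene, each spanning the same number of log2 units) on the 3 arrays of 3-month islets (blue) and the 3 of 12-month islets (orange); the black bars give the mean and SD. The ages do not overlap for *Becn1*, *Atg3*, *Atg7*, *Map1lc3a*, *Map1lc3b* and *Sqstm1*, and overlap for *Atg5*, *Atg12* and *Lamp2*.

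In the conjugation machinery, *Atg7* and *Atg3* lay on opposite sides. The *Atg7* log2 signal was 9.86, 9.68 and 9.49 on the 3-month arrays and 8.45, 8.81 and 9.11 on the 12-month arrays. Every array of the older rats was below every array of the younger ones. The means were 9.68 ± 0.18 and 8.79 ± 0.33 (SD, n = 3 each), a difference of -0.89 (SE 0.27, 95% interval -1.52 to -0.25; limma adjusted p = 0.0804). *Atg3*, which encodes the enzyme that passes LC3 on to the membrane lipid, read 12.30, 12.61 and 11.86 at 3 months and 12.74, 12.83 and 12.85 at 12 months. The 3 older values were close together and above all of the younger ones, which were spread more widely. The difference was 0.55 (SE 0.27, 95% interval -0.080 to 1.19; limma adjusted p = 0.198).

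The partners of the ATG12-ATG5 conjugate gave no such separation. *Atg5* read 10.77, 10.98 and 11.70 at 3 months and 10.72, 11.27 and 11.06 at 12 months. Its highest array was the third of the younger rats, and the difference of -0.13 had a 95% interval from -0.91 to 0.64 (limma adjusted p = 0.792). *Atg12* read 12.80, 12.81 and 12.66 at 3 months and 12.64, 13.13 and 12.51 at 12 months. The older arrays fell on both sides of the younger ones, with a difference of 0.0065 and a 95% interval from -0.60 to 0.62 (limma adjusted p = 0.989). The intervals of both genes still allow a change of about the size measured for *Atg3*.

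Both LC3 genes were lower on every older array than on any younger one. *Map1lc3b* read 14.89, 14.80 and 14.81 at 3 months and 14.09, 14.22 and 14.11 at 12 months. The arrays of each age were close together, and the means of 14.84 ± 0.052 and 14.14 ± 0.067 (SD, n = 3 each) differed by -0.69 (SE 0.21, 95% interval -1.19 to -0.19; limma adjusted p = 0.0820). *Map1lc3a* read 13.60, 12.90 and 12.83 at 3 months and 12.45, 12.14 and 12.68 at 12 months. The gap between the ages was narrow, 12.83 against 12.68, and the first array of the younger rats was high. The difference was -0.69 (SE 0.30, 95% interval -1.41 to 0.036; limma adjusted p = 0.170). *Map1lc3b* passed the adjusted threshold in 5 of 19 alternative analyses, among them background correction by normexp (-0.59, adjusted p = 0.0423), and *Map1lc3a* in none. Whenever 1 array was left out, *Map1lc3b* did not pass (limma adjusted p from 0.0991 to 0.240).

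*Becn1* was represented by 2 probes designed to different transcript records, whose log2 values differed by at most 0.15 on any array. The brighter one read 13.02, 13.04 and 13.32 at 3 months and 12.77, 12.95 and 12.67 at 12 months. The older arrays were lower by a narrow margin, and the difference was -0.33 (SE 0.23, 95% interval -0.87 to 0.22; limma adjusted p = 0.344). With the other probe the ages overlapped, and the difference was -0.24 (limma adjusted p = 0.482).

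*Sqstm1* had the lowest adjusted p of the 9 genes. The brighter of its 2 probes read 13.96, 14.17 and 14.01 at 3 months and 15.02, 14.75 and 15.13 at 12 months. All of the older arrays were above the younger ones, and the gap between the ages was wider than the spread within either. The means were 14.05 ± 0.11 and 14.97 ± 0.19 (SD, n = 3 each), a difference of 0.92 (SE 0.23, 95% interval 0.37 to 1.47; limma adjusted p = 0.0552), or 1.89-fold. It passed the adjusted threshold in 6 of 19 alternatives, among them the table of values that the authors deposited (0.93, adjusted p = 0.0483). That table comes from the same arrays and is not a separate measurement. Whenever 1 array was left out, *Sqstm1* did not pass (limma adjusted p from 0.0527 to 0.184).

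The second *Sqstm1* probe, designed to another RefSeq transcript of the gene, did not share this difference. It read 10.96, 10.82 and 10.31 at 3 months and 10.43, 10.11 and 10.46 at 12 months. Its ages overlapped, and its difference was -0.37 (SE 0.27; limma adjusted p = 0.373). Within each array the brighter probe exceeded the dimmer one by 2.99, 3.35 and 3.71 log2 units at 3 months and by 4.59, 4.65 and 4.67 at 12 months. The distance between the probes was therefore greater on every older array, by 1.29 on average, or by 0.97 when arrays were scaled by a 75th percentile shift instead. Averaging both probes gave a difference of 0.28 for *Sqstm1* (limma adjusted p = 0.439), so that its value rests on the probe used. The probe sequences were not used here, and which transcript accounts for most of the signal was not tested.

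The brighter *Sqstm1* probe and *Map1lc3b* differed in opposite directions between the ages. The dimmer *Sqstm1* probe was lower in mean at 12 months, as *Map1lc3b* was (-0.37 and -0.69), so what follows holds for the brighter probe. The value of the brighter *Sqstm1* probe minus the *Map1lc3b* value was -0.94, -0.63 and -0.80 at 3 months and 0.92, 0.53 and 1.02 at 12 months. The balance of these 2 probes had the opposite sign in the 2 ages, and it moved by 1.61 with quantile normalization and by 1.65 with the 75th percentile shift. This pair was chosen after its values were seen, and the shift is given as a description with no test. Since it compares 2 probes, its sign does not say which transcript was more abundant.

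**Figure D2:**
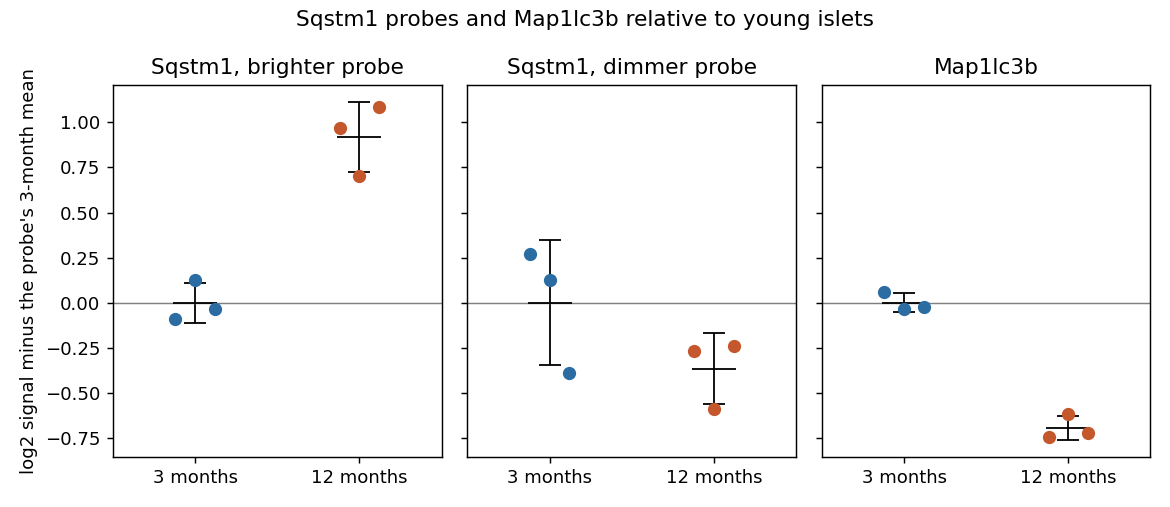
Log2 signal of the brighter *Sqstm1* probe, the dimmer *Sqstm1* probe and *Map1lc3b*, each minus that probe's mean over the 3-month arrays, on every array (blue, 3 months; orange, 12 months; bars, mean and SD, n = 3 each). The brighter *Sqstm1* probe lies 0.92 above its 3-month mean on average in older islets, the dimmer probe 0.37 below and *Map1lc3b* 0.69 below.

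At the lysosomal membrane, *Lamp2* read 15.07, 15.23 and 15.19 at 3 months and 15.21, 15.62 and 15.16 at 12 months. The second older array was high and the others lay among the younger ones. The difference was 0.17 (SE 0.24, 95% interval -0.40 to 0.73; limma adjusted p = 0.644).

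The direction of the smallest differences depended on the scaling. The 75th percentile shift moved the median of all probes from -0.17 to -0.40, and with it *Lamp2* to -0.22 and *Atg12* to -0.26. Relative to the median of all probes, *Lamp2* was at 0.34 and 0.18 under the 2 scalings and *Atg12* at 0.18 and 0.14. On the same relative scale *Sqstm1* was at 1.09 and 0.99, *Atg3* at 0.73 and 0.70, *Map1lc3b* at -0.52 and -0.66, and *Atg7* at -0.72 and -0.48. The 6 genes whose ages did not overlap kept their direction under both, but their sizes moved. Over 19 alternatives the difference of *Becn1* ranged from -0.61 to -0.17 and that of *Atg3* from 0.30 to 0.73. The shift gave -1.06 for *Map1lc3b* and 0.59 for *Sqstm1*.

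**Figure D3:**
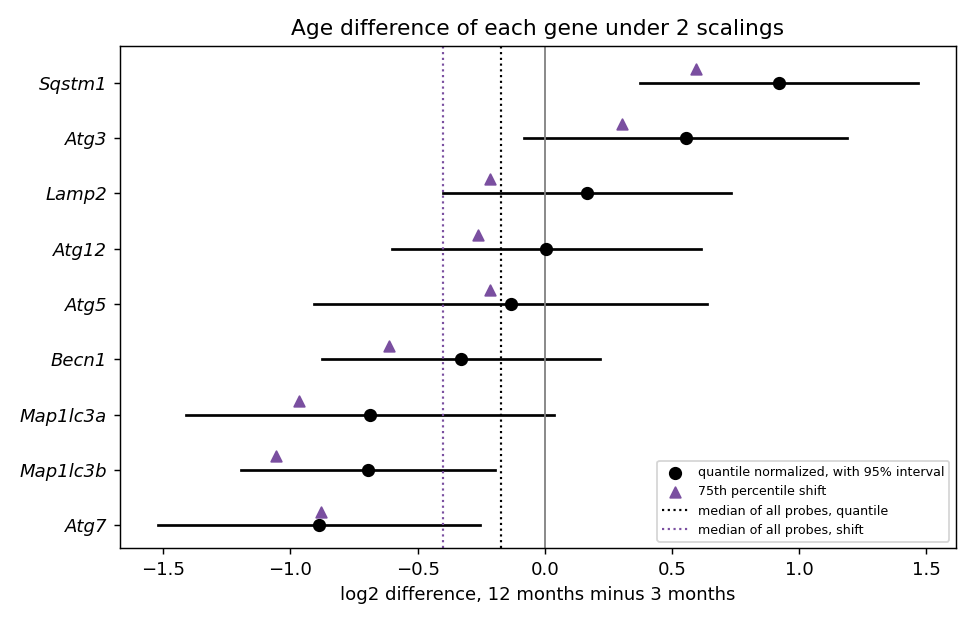
Log2 difference between 12-month and 3-month islets (horizontal axis) for each of the 9 genes: circles and lines give the quantile-normalized difference with its 95% interval, triangles the difference after a 75th percentile shift, and dotted lines the median of all probes under each. The intervals of *Sqstm1*, *Map1lc3b* and *Atg7* do not reach 0, and *Lamp2* and *Atg12* change sign with the scaling.

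Promoter sequence was set beside these values, since many lysosomal and autophagy genes carry the CLEAR element, a motif recognised by the transcription factor TFEB. RefSeq promoters of the GRCr8 build, 250 bases before to 50 after the transcription start, were at hand for 8 of the 10 genes. *Becn1* and *Map1lc3a* were missing from the table. The letters GTCACGTG, searched on both strands, were in 1.85% of 33469 promoters, in 14.5% of the 131 promoters of a wider list of 159 autophagy and lysosome genes, and in 2 of the 8, *Atg3* and *Lamp1*. The last 120 bases before the start are shown for *Sqstm1* and *Map1lc3b*, whose probes were compared above, and for *Atg3*, with the motif in capitals.
Sqstm1: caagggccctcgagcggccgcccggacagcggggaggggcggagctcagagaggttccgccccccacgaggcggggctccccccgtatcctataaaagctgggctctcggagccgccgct
Map1lc3b: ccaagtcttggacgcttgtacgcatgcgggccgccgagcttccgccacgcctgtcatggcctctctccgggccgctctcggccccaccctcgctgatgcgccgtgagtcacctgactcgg
Atg3: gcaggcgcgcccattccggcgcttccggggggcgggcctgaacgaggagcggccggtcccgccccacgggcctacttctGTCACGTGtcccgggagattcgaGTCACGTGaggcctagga
These windows are chr10:35037751-35037870 on the minus strand, chr19:66574475-66574594 on the plus strand and chr11:69159281-69159400 on the minus strand. The 2 matches of *Atg3* lay 41 to 34 and 18 to 11 bases before the start. The shorter E-box CACGTG, which is contained in the first motif, was in 6.42% of all promoters and in 3 of the 8, and TGACNNNGC, the core of the antioxidant response element, was in 12.1% and in 1 of the 8, *Map1lc3b*, where it spans the start and so runs past the printed bases. Of the 15 tested genes of the wider list that held GTCACGTG, *Atg3* among them, 8 had a higher and 7 a lower mean at 12 months, and 1, *Clcn7*, passed the adjusted threshold, as lower. A match is a stretch of letters and not evidence of binding.

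The rest of the pathway was read from the same wider list, of which 115 of the 149 genes outside the 10 were tested. At the adjusted limma threshold 9 passed, 5 higher and 4 lower at 12 months, or 7.83%, against 5.32% of all tested probes as higher and 3.05% as lower. At the study's threshold 11 passed, 5 higher and 6 lower, against 10.1% and 11.9% of all probes. Of the 115, 60 had a higher and 55 a lower mean, and their median difference was 0.044. The share called was close to that over all probes at the adjusted threshold (7.83% against 8.37%) and below it at the study's threshold (9.57% against 22.0%). Against the brightest 20% of kept probes it was higher at both thresholds (3.54% and 7.25% of those probes). The reading thus depends on the brightness of the probes compared, and whether the list differs from probes of like brightness was not tested. The adjusted count was 0 without the first or the third array of the older rats, 1, 4 and 2 without the first, the second and the third array of the younger rats, and 11 without the second older array, without which 21 passed the study's threshold.

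In the initiation complex and the lipid kinase complex of BECN1, none of 7 tested genes other than *Becn1* passed the adjusted threshold. Of the 7, 2 passed an unadjusted limma p of 0.05, *Atg101* and *Atg14*, a share below the 32.4% of all tested probes. *Atg101*, of the kinase complex that starts autophagy, differed by -0.73 (adjusted p = 0.151), and *Atg14*, a partner of BECN1, by -0.69 (adjusted p = 0.116). *Wipi2*, whose product binds the lipid made by that complex and recruits the conjugation machinery, fell. It read 11.07, 11.15 and 11.39 at 3 months and 10.11, 10.39 and 10.08 at 12 months, a difference of -1.01 (SE 0.23, adjusted p = 0.0464). It was the only 1 of 8 genes of ATG9 traffic and lipid delivery to pass, or 12.5% against 8.37% of all tested probes. Of these 8 genes 4 had a higher and 4 a lower mean at 12 months. *Wdr45b*, named after its values were seen, differed by 0.92 (limma adjusted p = 0.0536).

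Of 3 further conjugation genes 1 passed, against 8.37% of all tested probes. This gene, *Atg4c*, encodes a protease that processes LC3, and it rose. It read 8.34, 8.68 and 9.21 at 3 months and 10.12, 10.38 and 9.92 at 12 months, a difference of 1.40 (SE 0.30; adjusted p = 0.0399). None of the 3 other ATG8 relatives passed, and *Gabarapl1* differed by -0.31 (adjusted p = 0.345).

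The largest difference in the list was that of *Retreg1*, a receptor for the turnover of endoplasmic reticulum. It read 8.73, 8.80 and 6.64 at 3 months and 11.17, 11.23 and 11.44 at 12 months. The low value was that of the third array of the younger rats, and all of the older arrays were above all of them, a difference of 3.22 (SE 0.58; adjusted p = 0.0265). It was the only 1 of 11 tested receptor and mitophagy genes outside *Sqstm1* to pass the adjusted threshold, or 9.09%. Of all tested probes 8.37% passed.

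Among 8 further lysosomal membrane proteins tested, 2 passed, or 25% against 8.37% of all tested probes. They were a chloride exchanger and its partner subunit, with opposite signs. *Ostm1*, the accessory subunit, read 5.31, 6.09 and 5.56 at 3 months and 7.75, 7.45 and 8.22 at 12 months. The difference was 2.16 (SE 0.32, adjusted p = 0.0162). Its signal was dim at 3 months, and with normexp the difference was 1.21. *Clcn7*, the exchanger, read 9.47, 9.52 and 10.04 at 3 months and 7.82, 8.76 and 8.16 at 12 months, a difference of -1.43 (SE 0.33; adjusted p = 0.0462). The ages did not overlap for either gene. None of 12 subunits of the vacuolar ATPase, the proton pump of the lysosome, and none of 30 lysosomal enzymes and activators passed. *Atp6v0a1* passed the study's threshold as lower (-1.12, adjusted p = 0.0595), and *Gusb*, a lysosomal glucuronidase, differed by 0.86 (adjusted p = 0.0743). Nor did any of 10 tethering and fusion genes pass, among which *Vps18* differed by -0.73 (adjusted p = 0.153), or any of 5 genes of sorting to lysosomes, among which *Igf2r* differed by 0.83 (adjusted p = 0.106).

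Of 18 regulators 4 passed, 2 higher and 2 lower at 12 months, or 22.2% against 8.37% of all tested probes. Several roles were looked at, and whether this role differs from the others was not tested. *Rraga*, a Rag GTPase that brings mTORC1 to the lysosome, read 10.90, 11.44 and 11.27 at 3 months and 13.10, 12.90 and 13.12 at 12 months, a rise of 1.84 (SE 0.25; adjusted p = 0.0120). *Rragd*, of the class of Rag GTPases that pairs with it, read 10.44, 10.31 and 10.19 and then 8.97, 8.75 and 9.03, a difference of -1.40 (SE 0.22; adjusted p = 0.0197). The older arrays of the first were all higher and those of the second all lower than any younger array. *Rptor*, the mTORC1 subunit that binds the Rag proteins, differed by -1.12 (SE 0.23; adjusted p = 0.0341); it was named after its values were seen. Other genes of the same lysosomal machinery did not pass, among them *Rragc* (0.24), *Mtor* (-0.24), *Flcn* (0.11) and *Lamtor1* to *Lamtor5* (-0.62 to 0.63). *Foxo3*, a transcription factor that drives autophagy genes, read 4.90, 5.11 and 4.52 and then 6.36, 5.81 and 6.04. The difference was 1.23 (SE 0.28, adjusted p = 0.0440). This signal was dim, although well above background on all 3 arrays of each age. *Tsc1*, at a mean of 4.67 on the older arrays, was well above background on 0 of them. With normexp the *Foxo3* difference was 0.45.

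**Figure D4:**
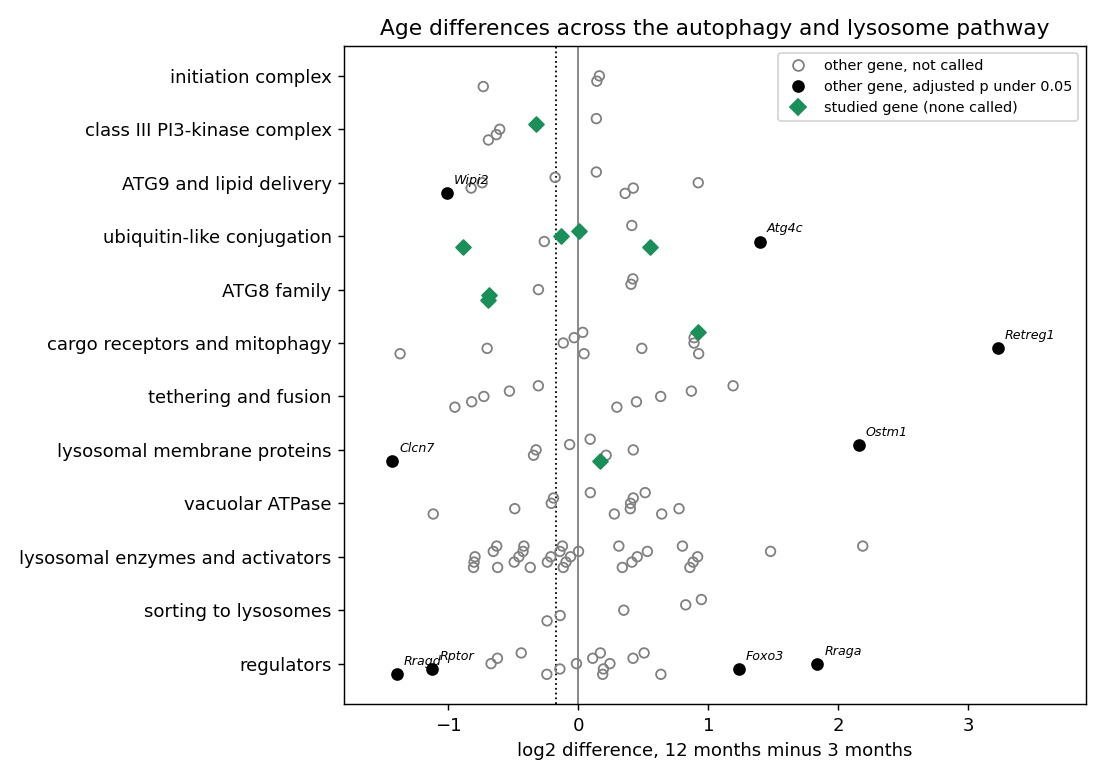
Log2 difference between 12-month and 3-month islets (horizontal axis) for each tested gene of the wider list, by role (rows); green diamonds are the 9 genes described first, black points other genes with an adjusted p under 0.05, open circles all others, and the dotted line the median of all probes. The 9 called genes, 5 to the right of 0 and 4 to the left, lie in 5 of the 12 roles.

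The direction of each of the 8 called genes chosen by rule was the same in all 19 alternatives, but none was called in all of them. *Rraga* passed in 13, *Retreg1* and *Rragd* in 11, *Ostm1* in 10, *Clcn7* in 9, *Wipi2* and *Atg4c* in 8 and *Foxo3* in 6. When 1 array was left out in turn, all 8 calls were lost without the first or the third array of the older rats, and all but that of *Atg4c* held without the second older array. Without the first array of the younger rats only *Rraga* was called. Without the second young array *Rraga*, *Retreg1*, *Rragd* and *Ostm1* were called, and without the third only *Rraga* and *Retreg1*. Calls over all probes also fell each time an array was left out, except for the second older array, where they rose. With normexp the difference of *Foxo3* was 0.45 (adjusted p = 0.101) and that of *Ostm1* 1.21 (adjusted p = 0.0257), and the 75th percentile shift gave 0.76 for *Foxo3* (adjusted p = 0.204).

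Several facts of the arrays moved with age. Between 73.0% and 77.4% of probes were well above background on the younger arrays and between 59.5% and 64.2% on the older ones, and the median signal of the negative control spots was 29.5 to 31 against 89.5 to 91. The lowest scanner signal of the 9 genes on any array was 264.5, and their median signal was 2426 on the first young array and 5307 to 13520 on the others. Of islet markers, 6 matched beta cell genes were all well above background on all arrays, and 2, *Slc2a2* and *Slc30a8*, were called as higher at 12 months. *Ins1* (0.098), *Ins2* (-0.12), *Iapp* (0.95) and *Nkx6-1* (-0.22) were not called. The list had a summed signal of 827000 to 968000 at 3 months and 1050000 to 1190000 at 12 months. Markers of the other endocrine cells, 6 genes with higher means of which *Hhex* was called, did not overlap either in their sums, 717000 to 788000 against 909000 to 1000000. Acinar markers, 7 genes of which none was called, summed to 1330000 to 1960000 and 1170000 to 2120000. Macrophage and immune markers, 11 genes of which 10 were tested and *Cd163* was well above background on no array, had lower means for all 10 with none called, and their sums overlapped, 37300 to 99500 against 28500 to 92800. The sums also did not overlap for duct markers (28100 to 34000 against 36100 to 58000; none of 4 called, *Krt19* lower in mean), mesenchymal markers (9730 to 17000 against 25300 to 64900; 1 of 5 called, *Pdgfrb*, higher), endothelial markers (8370 to 11800 against 4450 to 7110; none of 4 called, *Pecam1* higher in mean by 1.23 and the other 3 lower) or nerve markers (5190 to 8390 against 2120 to 3140; 2 of 6 called, *Sox10* and *Prph*, lower). The part of these cell types, and of the raised background, in the differences of the autophagy genes was not tested.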

How the data were processed

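The authors deposited, per the file headers, spot intensity from Agilent Feature Extraction 11.0.1.1, background-subtracted and not normalized between arrays, and a table of log2 values after quantile normalization, which was used only as an alternative. The log2 intensity of the spots of a probe was averaged, leaving out spots flagged as outliers, and the probe values were then quantile-normalized in R 4.3.3. Of 24684 probes, 17944 were well above background on at least 3 of 6 arrays and were kept. A design with age alone was fitted with limma 3.58.1, and p-values were adjusted (Benjamini-Hochberg) over the 17941 tested probes. A gene was read from its probe with the highest mean signal. Of 15323 mRNA accessions on the array, 14274 matched a RefSeq symbol. The members and lists were chosen with earlier results of these data known. From the wider list, each role's called genes, up to 3 with the largest difference, were named, or, where none passed, the gene with the smallest p. Nothing in the labels beyond the number of rats says how the samples were kept apart, so p-values measure the spread between these arrays, and 3 arrays per age limit the precision. The script was tested on simulated data.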

Additional observations from a re-analysis of the deposited data

How the results depend on the processing

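Over 19 alternatives, *Becn1*, *Atg3*, *Atg7*, *Map1lc3a*, *Map1lc3b* and *Sqstm1* kept their direction. *Atg12* turned to -0.26 under the 75th percentile shift, -0.057 with normexp, -0.10 with array weights, -0.18 without 12-month replicate 2 and -0.043 without 3-month replicate 3. *Lamp2* turned to -0.22 under the shift. *Atg5* turned to 0.12 with a replicate block on the numbered pairs, 0.015 without 12-month replicate 1 and 0.14 without 3-month replicate 3 (with 1 array left out, -0.32 to 0.14, against -0.18 to 0.13 for *Atg12*). Of the 9 genes, 0 passed the adjusted threshold in the main analysis (1502 of 17941 probes called). The count was 1 under the shift (1720 of 17941) and with the deposited table (1093 of 12145). It was also 1 under a filter that asked for all 6 arrays (1700 of 13494), with no filter (2339 of 24681) and with the methods' unpaired test (437 of 17876). It was 2 with normexp (1877 of 17941) and with an intensity trend and robust variances (2017 of 17876), and 3 with array weights (5694 of 17941). The count was 0 each time 1 array was left out, where 208 to 2163 of all probes were called. At the study's threshold 1 passed under the shift, normexp, array weights and the numbered block, where 4921, 2102, 4935 and 2775 of all probes passed. With 1 array left out 0 to 1 passed (1 without 12-month replicate 2 or 3), against 3122 to 4885 of all probes. The 9 other list genes past the adjusted threshold became 14 with trend and robust variances, 31 with array weights and 4 with the methods' unpaired test. Those settings called 2017 of 17876, 5694 of 17941 and 437 of 17876 probes. The list count was 0 with the paired test, with either replicate block and with the 4 arrays of matching names. Over all probes the paired test called 1, the numbered block 0, the block of 3 pairs 97 and the 4 arrays 0, so a count of 0 there says little about the list. With 1 array left out the list count was 0 to 11, against 208 to 2163 of all probes. At the study's threshold the 11 became 17 with array weights, 7 with the numbered block, 6 with the paired test, and 10 to 21 when 1 array was left out. Over all probes that threshold called 3953 in the main analysis, and 4935, 2775, 1550 and 3122 to 4885 in those settings. The array weights did not converge. The 2 pairs of arrays that share a number did not deviate together (correlations -0.0105 and -0.31). Nor did the remaining pair (-0.26), which is assumed since the third older array carries no number. These correlations cannot show whether animals were paired. The study's lists name a paired test, and no block was used in the main fit because the labels give no complete pairing. The cause of these shifts was not tested.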
